A study of Mus musculus with 2 samples.

Results

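Mitosis and cytokinesis genes build and run the machinery that condenses chromosomes, attaches them to the spindle, pulls them apart and divides the cell. The 54 genes were chosen by name for these roles, and 53 of them were measured here among 19863 genes with a single annotated symbol. Ccnb1, the gene of cyclin B1, had no single-symbol row and was not analysed here. The samples were 1 culture of bone marrow derived macrophages labelled beta-catenin deficient and 1 culture of control macrophages, each on 1 Affymetrix whole-transcript array. Both came from mice aged 8 weeks and were grown with conditioned medium of the mouse fibroblast line L929, a source of macrophage colony-stimulating factor. The sources used here do not give the strain, the Ctnnb1 allele, the promoter that drove its deletion or the number of mice pooled.

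Entry into mitosis is driven by the kinase Cdk1 bound to cyclins of the A and B type, and exit by the anaphase-promoting complex, which marks cyclin B and securin for destruction. Most genes of this class are silent in resting cells and are transcribed together late in the cell cycle by the MuvB complex with B-Myb and FoxM1, which reaches many of their promoters through an element called the cell cycle genes homology region, or CHR, often beside CCAAT boxes bound by NF-Y. Bone marrow macrophages divide in culture while macrophage colony-stimulating factor is present, so a population of them carries these transcripts. In bulk RNA a smaller share of dividing cells and less of a transcript per dividing cell cannot be told apart.

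CHR letters were common in the promoters of these genes. Of 44 members with a RefSeq promoter sequence (250 bases before the annotated start to 50 bases after it, assembly GRCm38.p6), 33, or 75%, held TTTGAA on either strand or TTCGAA, which reads the same on both strands. Genes were set against those that reached a brightness floor of 7.28 on at least 1 array, the median over all values of the arrays. The same letters stood in 16.1% of the 8598 such genes with a promoter in the RefSeq set, and in 19.2% of all its 32851 promoters. Matches clustered at the start: 30 members, or 68.2%, had one within 50 bases on either side of it, against 4.30% of genes that reached the floor, a window chosen after the positions were seen. CCAAT, read as CCAAT or ATTGG, stood in 31 members, or 70.5%, against 42.4%, and 37.4% of all promoters. Both elements were found in the same promoter for 28 members, or 63.6%, against 6.56%. Other genes of mitosis, listed by role below, lay in between. Of 128 with a promoter, 54, or 42.2%, held a CHR match, 25.8% had one within 50 bases of the start, and 25.8% had both elements. A CHR match and a CCAAT match shared bases in 1 of the 48 member promoters. The windows printed next show the CHR match in capitals for the 5 members with the most negative differences among those with a match, then for the 3 nearest to 0 among those with a match, so that the element can be compared between them.
Kif11 (chr19:37376352-37376379, plus strand): cgtctccatttTTCAAAattgaggcgcg
Smc2 (chr4:52439236-52439263, plus strand): tcgcgccgaaaTTCAAAggaacagttcc
Hmmr (chr11:40733413-40733440, minus strand): gttgaggtaaaTTTGAAttcaggcgagc
Bub1 (chr2:127831829-127831856, minus strand): tgcgcggggaaTTCGAAtcgccggcggc
Aspm (chr1:139454768-139454795, plus strand): gaggcgcgataTTTGAAccgagcaaaag
Plk1 (chr7:122159454-122159481, plus strand): ccagcgccgcgTTTGAAttcggggagga
Espl1 (chr15:102296255-102296282, plus strand): cactagggataTTTGAAaggaggtgctg
Cenpa (chr5:30666891-30666918, plus strand): gcgggtgatttTTTGAActgctggcgac

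The matches began at position -19 in Kif11, 27 in Smc2, 9 in Hmmr, 15 in Bub1, 7 in Aspm, 31 in Plk1, -27 in Espl1 and 17 in Cenpa, counted with 1 at the annotated start and -1 just before it. These 8 were picked among genes with a match, and genes without one also lay at both ends of the order, such as Cenpk (-1.38) and Nusap1 (-1.13), and Melk (-0.16) and Mad2l1 (-0.23). Longer stretches, from position -150 to 30, are given for the 2 most negative members and for the highest member with a promoter in the set, with CHR and CCAAT matches in capitals. Cenpk has 3 annotated promoters, of which the one with CCAAT matches in this stretch is printed, and none of the 3 held a CHR match.
Cenpk (chr13:104228816-104228995, plus strand): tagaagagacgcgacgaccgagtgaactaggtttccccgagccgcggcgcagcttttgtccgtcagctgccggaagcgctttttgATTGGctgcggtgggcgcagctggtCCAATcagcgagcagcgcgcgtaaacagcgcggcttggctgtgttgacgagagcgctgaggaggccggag
Kif11 (chr19:37376232-37376411, plus strand): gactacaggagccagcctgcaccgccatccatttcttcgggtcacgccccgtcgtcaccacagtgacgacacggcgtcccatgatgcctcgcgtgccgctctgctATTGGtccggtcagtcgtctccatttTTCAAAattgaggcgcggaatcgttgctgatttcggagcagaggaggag
Cenpa (chr5:30666736-30666915, plus strand): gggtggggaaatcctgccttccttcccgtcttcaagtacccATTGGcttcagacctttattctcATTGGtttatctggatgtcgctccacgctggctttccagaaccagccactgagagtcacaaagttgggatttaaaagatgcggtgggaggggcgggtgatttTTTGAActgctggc

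**Figure D1:**
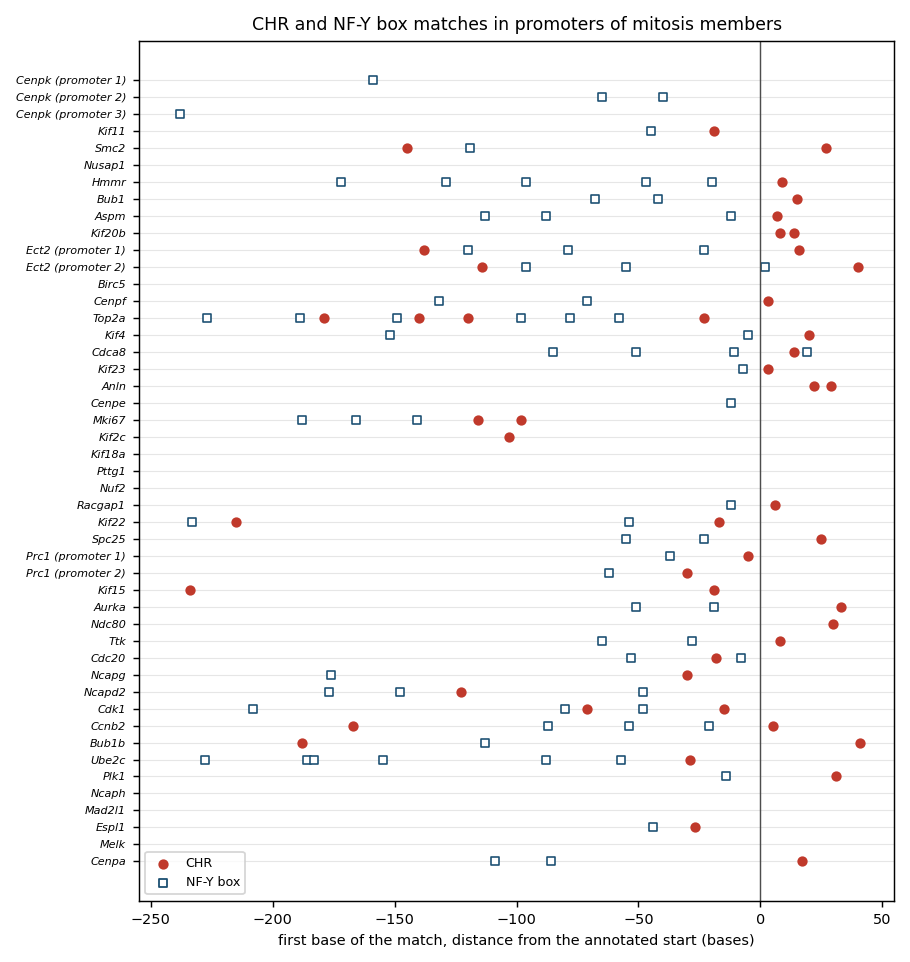
Positions of CHR matches (filled circles) and NF-Y boxes, that is CCAAT matches (open squares), in the promoters of 43 members with an array value, 1 row per annotated promoter, against the distance in bases from the annotated start. Rows run from the most negative difference between the arrays at the top to the highest at the bottom, and most CHR matches lie around the start.

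The array values are log2 RMA values, so a difference of 1 is 2-fold, and each is the value of a single array with no replicate error. A gene was counted when the higher of its values reached the floor of 7.28. This left 10657 genes, and 1.5-fold corresponds to 0.58 on the log2 scale. Values had a median of 7.24 on the array labelled deficient and 7.31 on the control array. Their lower quartiles lay further apart, at 5.83 and 6.10. Ctnnb1, the gene of beta-catenin, read 11.44 on the array labelled deficient and 11.29 on the control array. It was not lower, and which exons were deleted is not given, so every direction below rests on the sample label.

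As a class the mitosis genes were lower on the array labelled deficient. Of the 53 measured members, which all reached the floor, 26 were at least 1.5-fold lower and 0 were 1.5-fold higher. Over all counted genes the shares were 8.81% lower and 7.54% higher. With the median of all genes set to 0, 16 members were at least 1.5-fold lower, where 4.51% of all genes were. The difference lay below 0 for 52 members, where 58.9% of all genes did, and 6 members were at least 2-fold lower and 0 higher, where 1.59% and 2.96% of all genes were. The members' median difference was -0.58 and that of all counted genes -0.08. Because the floor passes a gene on the higher array alone, it could favour genes that differ. Every member passed it on the control array, which was the higher one for all but Aurkb. On the array labelled deficient, 6 members (Cdc25c, Ttk, Cenpk, Kif20b, Kif18a and Aspm) read below it. Of these, Cenpk, Kif20b, Kif18a and Aspm are among the 26. With the floor on the mean of both arrays, 25 of 52 members were at least 1.5-fold lower, where 8.36% of all genes were. With 1 array per group no test was possible.

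**Figure D2:**
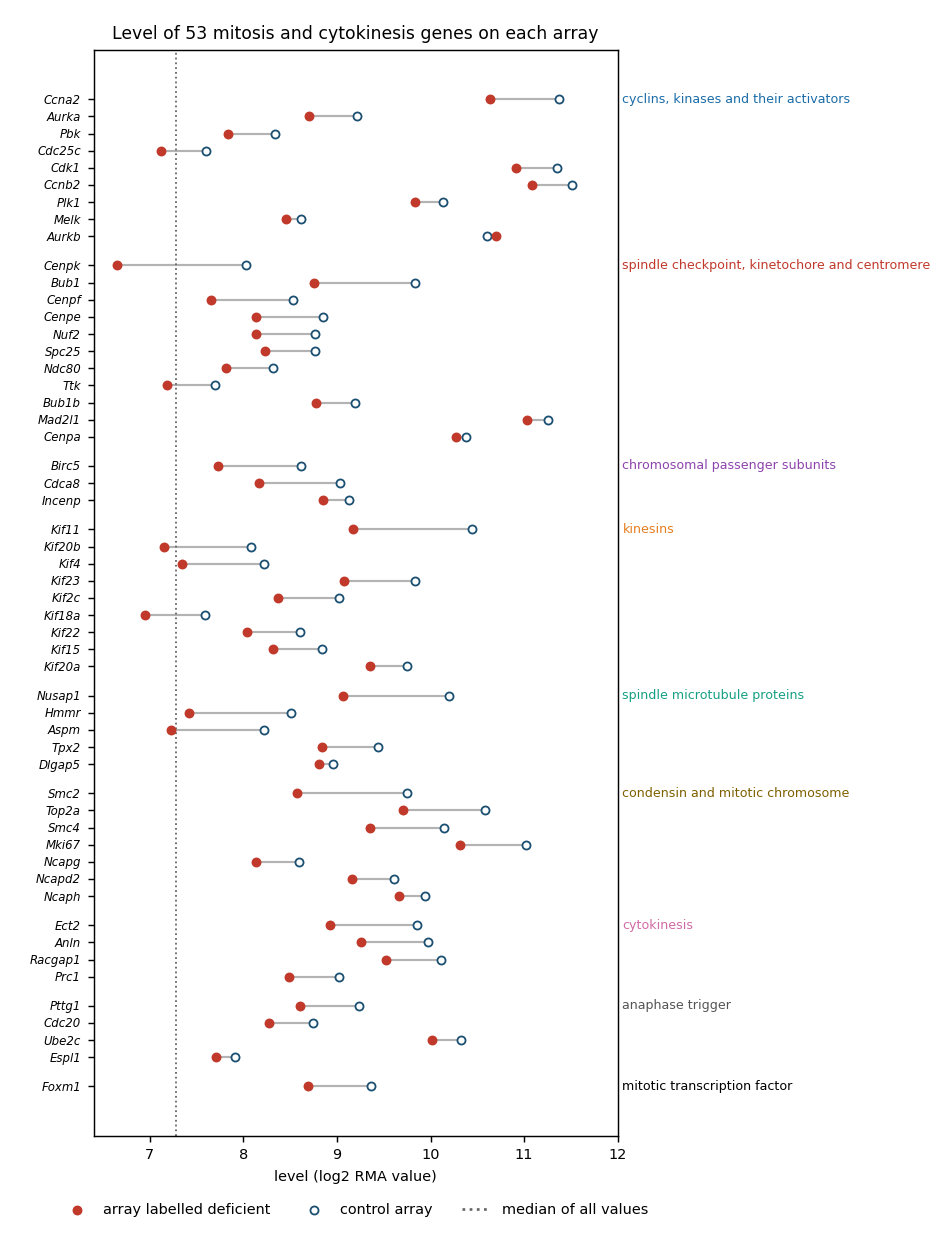
Level (log2 RMA value) of the 53 measured members on the array labelled deficient (filled) and on the control array (open), grouped by role, with the lowest difference first in each group; the dotted line is the floor of 7.28. Filled points lie left of the open points for every member but Aurkb.

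Cyclins, kinases and their activators differed least among the larger groups. Of 9 measured, 1 was at least 1.5-fold lower (11.1%, near the 8.81% of all counted genes). The group's median was -0.43, beside -0.08 for all counted genes. Ccna2, cyclin A2, which partners Cdk2 in S phase and Cdk1 in early mitosis, read 10.64 on the array labelled deficient and 11.37 on the control array, 1.66-fold lower. Cdk1, the kinase that starts mitosis, read 10.92 and 11.35 on those arrays, and Ccnb2, cyclin B2, read 11.08 and 11.51. Their differences were nearly equal, at -0.43 each.

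Cdc25c, the phosphatase that removes the inhibitory phosphates from Cdk1, differed by -0.48, Aurka, the centrosomal Aurora kinase, by -0.52, and Pbk, a kinase active in mitosis, by -0.49. Plk1, the Polo kinase of mitotic entry and spindle assembly, differed by -0.29 and Melk, another kinase with peak transcript levels in mitosis, by -0.16. Aurkb was the single member above 0, at 10.70 on the array labelled deficient and 10.60 on the control array.

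Aurkb is the kinase of the chromosomal passenger complex, which corrects faulty spindle attachments and later acts at the cleavage furrow. The other subunits read lower and by unequal amounts. Birc5, survivin, which docks the complex at centromeres, read 7.73 on the array labelled deficient and 8.62 on the control array, 1.85-fold lower. Cdca8, borealin, read 8.17 and 9.03, 1.82-fold lower. The scaffold Incenp, to which the kinase binds, read 8.86 and 9.13, a difference of -0.27, so that the kinase and its scaffold lay within 1.5-fold and the centromere-docking subunits beyond it.

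Genes of the spindle checkpoint, kinetochore and centromere had a median of -0.53, with 5 of 11 at least 1.5-fold lower. Cenpk, a subunit of the centromere network that stays on chromosomes through the cycle, had the most negative difference of all members, reading 6.65 on the array labelled deficient and 8.03 on the control array, 2.59-fold lower. Its lower value is under the floor, where the arrays differed across all genes. Bub1, a checkpoint kinase that also marks centromeres, read 8.76 and 9.83, 2.11-fold lower.

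The large kinetochore protein Cenpf differed by -0.88 and Cenpe, a kinetochore kinesin that carries chromosomes to the spindle equator, by -0.72. The NDC80 complex, which grips microtubule ends, was lower by similar amounts in 3 of its subunits, with -0.62 for Nuf2, -0.53 for Spc25 and -0.51 for Ndc80. Its other subunit, Spc24, differed by -0.34 (chosen after its value was seen). The checkpoint kinase Ttk, also called Mps1, differed by -0.51 and the checkpoint protein Bub1b, BubR1, by -0.42.

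Mad2l1, the checkpoint protein that holds Cdc20 inactive, read 11.03 on the array labelled deficient and 11.25 on the control array. Cenpa, the histone H3 variant that defines centromeres, read 10.27 and 10.38, a difference of -0.11 (0.04 after centring). These were the smallest differences of the group.

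Mitotic kinesins, the motors that slide, depolymerise or travel along spindle microtubules, were lower throughout, with 6 of 9 at least 1.5-fold lower and a median of -0.65. Kif11, or Eg5, which pushes the spindle poles apart, read 9.17 on the array labelled deficient and 10.45 on the control array, 2.43-fold lower. Kif20b, a motor of late cytokinesis, read 7.15 and 8.09, Kif4, a chromosome-bound motor, read 7.35 and 8.22. They were 1.91-fold and 1.83-fold lower.

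Kif23, the motor subunit of centralspindlin, differed by -0.76, the microtubule depolymeriser Kif2c, or MCAK, by -0.65, and Kif18a, which dampens chromosome movements, by -0.64. The smallest differences were those of Kif22, a chromosome-arm motor (-0.56), Kif15, which works beside Kif11 at the spindle (-0.53), and Kif20a, which brings Aurora B to the central spindle (-0.40). Kinesins and adaptors of interphase transport had a median of 0.05. Of 14 that reached the floor, 0 were 1.5-fold lower and 0 were 1.5-fold higher (1 higher after centring or loess). With so few genes these counts are near the 8.81% lower and 7.54% higher over all counted genes. Lowest were Kif5b, a heavy chain of conventional kinesin (-0.52), and Kif21b (-0.33). Kifap3 (0.30) and Kif26b (0.50) were highest.

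Microtubule proteins of the spindle had a median of -0.995, with 4 of 5 at least 1.5-fold lower. Nusap1, a microtubule bundler, read 9.06 on the array labelled deficient and 10.20 on the control array, 2.19-fold lower. Hmmr, which anchors spindle poles, read 7.42 and 8.50, 2.13-fold lower, and Aspm, a spindle pole protein whose human gene is mutated in microcephaly, read 7.22 and 8.22, 1.99-fold lower. Tpx2, the activator of Aurora A, differed by -0.60. Dlgap5, or HURP, a stabiliser of kinetochore fibres, stood apart from the other 4 at -0.15, which became 0.0024 after centring.

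The condensin and chromosome group had a median of -0.71, with 4 of 7 at least 1.5-fold lower. Smc2, the core ATPase shared by both condensin complexes, read 8.58 on the array labelled deficient and 9.75 on the control array, 2.25-fold lower. Its partner ATPase Smc4 read 9.35 and 10.14, 1.72-fold lower. The regulatory subunits of condensin I were nearer to 0, at -0.45 for Ncapg, -0.45 for Ncapd2 and -0.28 for Ncaph.

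Top2a, the topoisomerase that untangles sister chromatids, read 9.71 on the array labelled deficient and 10.58 on the control array, 1.83-fold lower. A second, dim transcript cluster of Top2a read 3.45 and 3.98. Mki67, the gene of the proliferation marker Ki-67, which coats mitotic chromosomes, read 10.32 and 11.02, 1.63-fold lower.

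Cytokinesis genes were all lower, with differences from -0.53 to -0.93, a median of -0.65 and 2 of 4 at least 1.5-fold lower. Ect2, the exchange factor that activates RhoA at the cleavage furrow, read 8.92 on the array labelled deficient and 9.85 on the control array, 1.91-fold lower. Anln, anillin, the scaffold of the contractile ring, read 9.25 and 9.97. Racgap1, which with Kif23 forms centralspindlin and recruits Ect2, differed by -0.584, just short of the 1.5-fold bound of 0.585, and Prc1, the bundler of the central spindle, by -0.53.

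Genes that trigger anaphase had a median of -0.39, and 1 of 4 was at least 1.5-fold lower. Pttg1, securin, which holds separase inactive, read 8.61 on the array labelled deficient and 9.24 on the control array, 1.55-fold lower. Cdc20, the activator of the anaphase-promoting complex, differed by -0.47, its ubiquitin-conjugating enzyme Ube2c by -0.31, and Espl1, separase itself, by -0.20. Foxm1, the transcription factor that drives many of these genes late in the cycle, read 8.69 on the array labelled deficient and 9.36 on the control array, a difference of -0.67. After centring, the counts at least 1.5-fold lower were 0 of 9 cyclins and kinases, 3 of 11 kinetochore genes and 2 of 3 passenger subunits. They were 4 of 9 kinesins, 3 of 5 spindle proteins and 3 of 7 condensin and chromosome genes. Of cytokinesis genes 1 of 4 was, and of anaphase genes 0 of 4, where 4.51% of all counted genes were. Foxm1 fell short of 1.5-fold at -0.52.

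Other genes of the same brightness had differences centred near 0. The members had mean levels from 7.27 to 11.29, and the 9527 genes in that range had a median difference of -0.08, with 8.75% at least 1.5-fold lower. Within single steps of level, 6 of 9 members from 7 to 8 were at least 1.5-fold lower, where 10.2% of all genes were. From 8 to 9, the step with the most members, 7 of 20 were, with a median of -0.53, against 8.60% of all genes. From 9 to 10 it was 10 of 15 members and 8.80% of all genes. Of 5 members from 10 to 11, 2 were at least 1.5-fold lower (median -0.31), against 8.01% of all genes, and of 4 from 11 to 12, 1 was (median -0.43), against 4.70%. Across the 53 members the mean level and the difference had a Spearman rho of 0.23 and a Pearson r of 0.26, given as a description of values that share the same arrays.

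**Figure D3:**
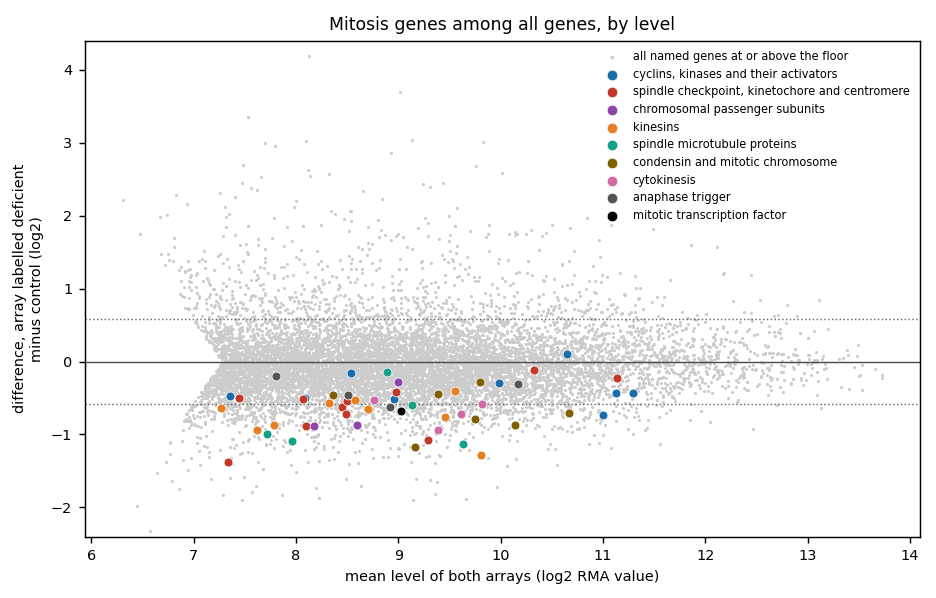
Difference (log2, array labelled deficient minus control) against the mean level of both arrays (log2 RMA value) for all 10657 genes at or above the floor (grey) and for the 53 members, coloured by role; dotted lines mark 1.5-fold. The members lie below 0 along the whole range of levels with 1 exception, Aurkb.

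Members with long genes had the more negative median difference, with exceptions such as Melk (63.8 kb, -0.16) and Bub1b (43.4 kb, -0.42). Of 34 members whose gene spans 20 kb or more in RefSeq, 21 were at least 1.5-fold lower (median -0.68), and of 19 with shorter genes 5 were (median -0.48). Over all counted genes the shares were 8.89% and 8.73%. Gene length and difference had a Spearman rho of -0.41 and a Pearson r of -0.33 across the 53 members and a rho of 0.01 across the 10652 genes with a length, values that share the arrays and the annotation. Of the 9 members under 10 kb, Ccna2, Pttg1 and Birc5 were at least 1.5-fold lower, and the other 6 (Cdc20, Kif20a, Ube2c, Mad2l1, Cenpa and Aurkb) lay from -0.47 to 0.10. The bound of 20 kb was chosen after the values were seen. Carrying a CHR match did not go with a more negative difference: the median was -0.56 for the 33 members with a match, of which 15 were at least 1.5-fold lower, and -0.63 for the 10 measured members with a promoter but no match, of which 7 were.

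Other genes of mitosis were listed by role. Of 145 that reached the floor, 34 (23.4%, beside 49.1% of the members and 8.81% of all genes) were 1.5-fold lower or more and 2 were 1.5-fold higher, with a median of -0.32, and the gap to the members was not tested. After centring, 21 of the 145 were 1.5-fold lower. Of the lower genes named next, Oip5, Cenpl and Haspin passed the floor on the control array alone, where a difference is favoured. Among 28 other kinetochore and centromere genes, 9 were 1.5-fold lower (4 after centring) and 1 higher, from Oip5, which helps load Cenpa (-1.40, reading 6.65 and 8.06 on the array labelled deficient and the control array), and Cenpl (-0.95) up to Trip13, an ATPase that disassembles the checkpoint complex (0.29), and Zwint (0.61). Of 21 other kinases, cyclins and phosphatases, 8 were lower (4 after centring) and 0 higher, from Wee1, the inhibitor of Cdk1 (-0.99), and the histone kinase Haspin (-0.92) up to Nek6 (0.23) and Ensa, an inhibitor of the phosphatase that opposes Cdk1 (0.27). Of 24 other spindle and centrosome genes, 5 were lower, led by the centriole genes Sass6 (-0.92) and Stil (-0.91), with Nde1 (0.06) and Haus8 (0.25) highest.

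Genes that link or fold chromosomes differed within complexes. Of 17 other condensin and cohesin genes, 4 were at least 1.5-fold lower, among them the cohesin acetyltransferase Esco2 (-1.30), the cohesin subunit Stag2 (-1.01) and the condensin II subunits Ncapg2 (-0.94) and Ncapd3 (-0.64). The third regulatory subunit of condensin II, Ncaph2, differed by -0.12, and the core cohesin subunits Smc1a, Smc3 and Rad21 by 0.17, -0.07 and -0.02. Apart from Esco2, Stag2 and Smc1a these subunits were chosen after their values were seen. Hdac8, the cohesin deacetylase, was at 0.17. Of 14 other cytokinesis genes, 2 were at least 1.5-fold lower, Depdc1a (-1.27, below the floor on the array labelled deficient) and Arhgap11a (-0.95). That is 14.3%, which with so few genes is near the 8.81% of all genes, while the septins Sept2 (0.19) and Sept9 (0.27), which also serve non-dividing cells, were highest.

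The anaphase-promoting complex, which is present in resting cells too, lay near the median of all genes. Of its 18 subunits and partners, 1 was at least 1.5-fold lower (5.56%) and 1 higher, with a median of 0.03. With so few genes these counts are near the shares over all counted genes, 8.81% lower and 7.54% higher. After centring, 0 were lower and 2 higher. Anapc10 (-0.73) and the inhibitor Fbxo5 (-0.44) were lowest, and Anapc16 (0.53) and Cdc26 (1.27) highest. Cdc20 and Ube2c, the members that act on this complex, were at -0.47 and -0.31.

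Among 23 regulators of the MuvB, MYB and E2F class, which switch the members on and off, 5 reached 1.5-fold lower and 0 reached 1.5-fold higher. That is 21.7% lower, beside 8.81% lower and 7.54% higher over all counted genes. The regulators' median was -0.30, and after centring 4 were 1.5-fold lower, where 4.51% of all counted genes were. The late-cycle repressor E2f8 (-1.19) and E2f2 (-1.02) were lowest, and E2f1 (0.30) and E2f5 (0.31) highest. B-Myb, encoded by Mybl2, differed by -0.37 and the MuvB subunits Lin54, Lin37, Lin52 and Lin9 by -0.48, -0.51, -0.29 and -0.21 (all chosen after their values were seen). None of these reached 1.5-fold. Foxm1 did as deposited, at -0.67, and did not after centring, at -0.52.

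Genes of DNA replication, which are transcribed earlier in the cycle, were also mostly below 0. The mitosis members had a median of -0.58 and the 52 replication genes one of -0.41, a gap that was not tested. Of the replication genes 10 (19.2%) reached 1.5-fold lower and 0 reached 1.5-fold higher, beside 8.81% and 7.54% of all counted genes. The lower count was 5 after quantile normalization or loess, where 6.93% and 6.26% of all genes were lower. It was 3 after centring with 1 higher, a share close to the 4.51% of all genes. Clspn (-1.10, below the floor on the array labelled deficient) and Ccne2, cyclin E2 (-0.90), were lowest, and Prim1 (0.30) and Rfc3 (0.44) highest. CHR letters stood in 75% of the mitosis members with a promoter and in 10 of 44 replication genes, or 22.7%, and CCAAT in 70.5% and 61.4%. Among 10 genes of G1 control, 1 was 1.5-fold lower and 1 higher, with a median of -0.11 that became 0.04 after centring. With so few genes these counts are near the 8.81% lower and 7.54% higher over all counted genes. The CDK inhibitor Cdkn2c (-1.24) and Cdk6 (-0.38) were lowest, and the CDK inhibitor Cdkn1b, p27 (0.43), and the growth factor-induced cyclin Ccnd2 (0.90) highest.

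**Figure D4:**
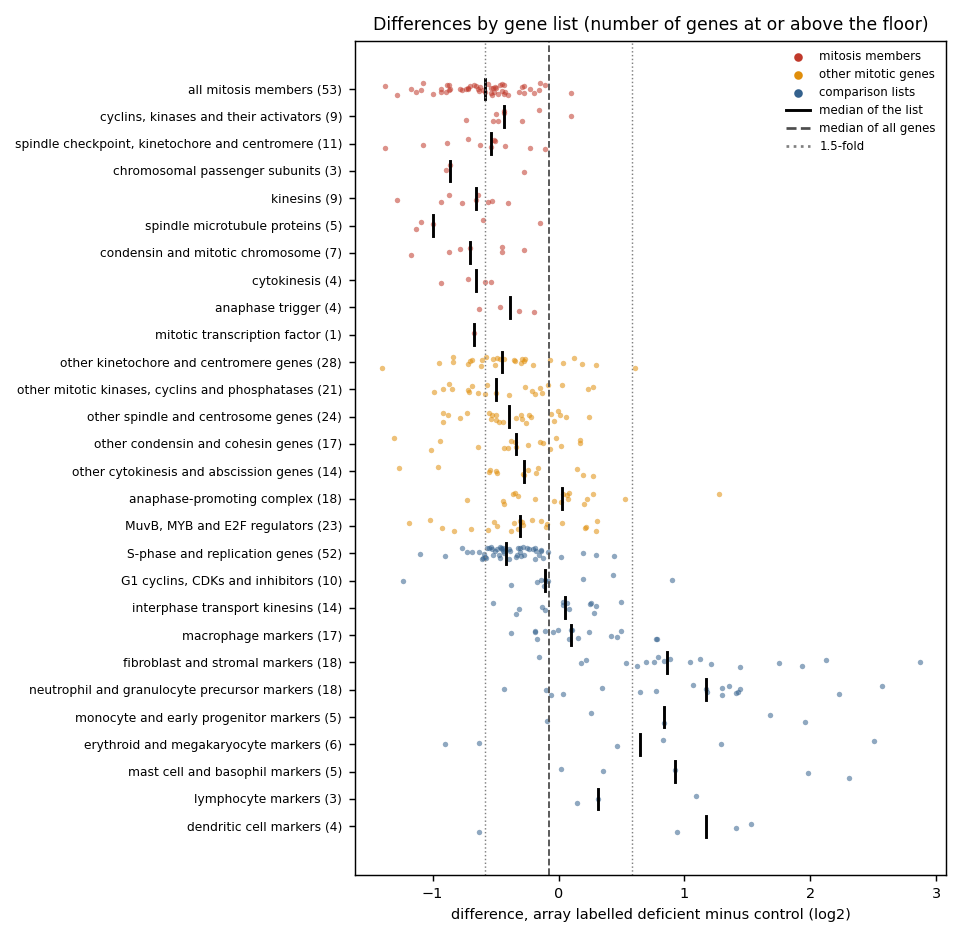
Difference (log2, array labelled deficient minus control) of each gene at or above the floor by list, with the number of genes in brackets; black bars are list medians, the dashed line is the median of all genes (-0.08) and dotted lines mark 1.5-fold. Mitosis members and other mitotic genes lie mostly left of the dashed line, with the anaphase-promoting complex (median 0.03) as the exception, and stromal and neutrophil markers lie mostly to its right.

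Markers of the labelled cell type were bright on both arrays, with median levels of 12.10 on the array labelled deficient and 12.14 on the control array for the 17 of 19 measured macrophage markers that reached the floor. Their median difference was 0.10, with 2 at least 1.5-fold higher and 0 lower. With so few genes this is near the shares over all counted genes, which were 7.54% higher and 8.81% lower. The counts of the other cell types below are to be read beside the same shares. Lyz2, lysozyme (-0.38), and Laptm5 (-0.19) were lowest, and the complement gene C1qb (0.78) and the Fc receptor gene Fcgr1 (0.78) highest. Stromal and neutrophil markers were mostly higher on the array labelled deficient. Among 18 fibroblast and stromal markers, 14 reached 1.5-fold higher and 0 reached 1.5-fold lower, with median levels of 10.38 on the array labelled deficient and 8.89 on the control array, and 2 of 19 measured were below the floor on the array labelled deficient, against 3 on the control array. Of 18 neutrophil and granulocyte precursor markers, 13 reached 1.5-fold higher and 0 reached 1.5-fold lower, with median levels of 9.67 and 8.30 on those arrays, and 0 and 4 markers were below the floor.

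The stromal markers ran from -0.15 for Mfap5 and 0.18 for Thy1 to 2.12 for Pdgfra and 2.87 for Cxcl12, and the neutrophil markers from -0.43 for Camp and -0.10 for Cebpe to 2.22 for Mpo and 2.57 for Retnlg. Of monocyte and early progenitor markers 3 of 5 were 1.5-fold higher, led by Plac8 (1.96) and Ccr2 (1.68), with Cd34 (-0.09) and Irf8 (0.26) lowest. Lists of the remaining cell types held few genes at or above the floor, and some of their higher genes passed it on the array labelled deficient alone, where a difference is favoured. Of 5 mast cell and basophil markers, 3 were higher and 0 of these reached the floor on the control array too, from Hdc (0.02) and Gata2 (0.35) to Cpa3 (1.98) and Prss34 (2.31). Of 6 erythroid and megakaryocyte markers, 3 were higher (2 with the control array at the floor) and 2 lower. They ran from Ermap (-0.90, below the floor on the array labelled deficient) and Tfrc (-0.63) to Gp9 (1.29) and Ppbp (2.51). Of 4 dendritic cell markers, 3 were higher (2 with the control array at the floor) and 1 lower, with Ccr7 (-0.63) and Cd209a (0.94) lowest and H2-Ab1 (1.41) and Itgax (1.53) highest. The 3 lymphocyte markers were Cd4 (0.15), Cd79b (0.32) and Nkg7 (1.09), and the higher one did not reach the floor on the control array. Without a floor the medians were 0.23 for the mast cell list (0.92 with it), 0.0046 for the erythroid list (0.65), -0.29 for the dendritic list (1.17), 0.18 for the monocyte list (0.84) and 0.06 for the lymphocyte list (0.32). For the stromal and neutrophil lists they were 0.88 and 1.17, and 13 of 14 and 10 of 13 higher markers reached the floor on both arrays. The part of these other cells in the lower values of the mitosis genes was not tested.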

How the data were processed

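Expression was measured with 1 array per group in bone marrow derived macrophages. The deposited table holds log2 values of 25917 transcript clusters, made by the authors with RMA per the submitters' processing notes. The sources used here do not give the RMA settings, the genome build or whether both columns came from 1 run. GEO's platform annotation named the rows (21624 with 1 symbol, 1568 with several, 2725 with none), and symbols were checked against RefSeq GRCm38.p6, which changed 0. The row with the highest mean was kept for the 947 genes with several rows. Differences are the array labelled deficient minus control, counted at 1.5-fold with a floor at the median of all values. With 1 array per group no p-value or standard error was computed, and the number of arrays limits the precision. Named genes were all members, Ctnnb1, and the 2 highest and 2 lowest of each list, and genes added outside this rule are marked in the text. The members and lists were chosen with earlier results of these data known. Promoter sequences are RefSeq's (GRCm38.p6), and 44 of 54 members matched by symbol. The counting and scaling steps were tested on simulated data. Python 3.11.15, pandas 2.3.3 and statsmodels 0.14.6 were used. Alternatives were other floors, centring, quantile normalization, a loess curve (span 0.3), other rows per gene and other promoter windows.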

Additional observations from a re-analysis of the deposited data

How the results depend on the processing

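The members' median stayed below 0 under each alternative run, and 0 members were 1.5-fold higher under any of them. The median of all genes, without a floor, was -0.15 as deposited, 0 after centring, -0.0010 after quantile normalization and 0.0043 after loess. The members' median of -0.58 was -0.43 after centring, -0.52 after quantile normalization, -0.50 after loess, -0.59 with the floor at the 75th percentile, and -0.57 with the floor on the mean, with the mean of all rows of a symbol or with the row of lowest mean. The count of 26 members at least 1.5-fold lower was 16 after centring (4.51% of all genes) and 14 of 28 with the floor at the 75th percentile, which leaves fewer genes, and 6 were at least 2-fold lower. For other mitotic genes the count of 34 was 21 after centring, 18 with that higher floor and 6 at 2-fold. S-phase genes at least 1.5-fold lower numbered 10 (19.2%, beside 8.81% of all genes), and 3 after centring, where 4.51% of all genes were. Centring, which left the genes at or above the floor at a median of 0.07, turned Cenpa to 0.0403 and Dlgap5 to 0.0024. No other member changed sign under a scaling. Of 44 members 33 held a CHR match, and 15 (34.1%, against 7.57% of genes at or above the floor) in the 150 bases before the start alone. The 50-base window and the genes with 1 promoter were chosen after the data were seen and gave 30 of 44 and 31 of 41. No paired analysis was possible because each group has 1 array, and for the same reason no replicate could be left out.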
